A study of Bos taurus with 9 samples.

Results

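Fatty acid synthesis and uptake were followed in bovine granulosa cells through 10 genes: FASN, ACACA, ACLY, SCD, ELOVL5, ELOVL6, FADS1, FADS2, CD36 and SLC27A1. Every array probe that the platform annotation assigns to one of these 10 symbols was taken. This gave 17 of 43794 probes: 3 each for ELOVL5, ELOVL6 and CD36, 2 for FADS1 and 1 for each of the other 6 genes. All 17 passed the filter on dim probes, among 38823 probes of all genes that did. The filter asked for a signal above the negative control spots, in either colour, on at least 3 of the 9 arrays.

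The granulosa cells came from dominant follicles of Holstein-Friesian cows, by ovum pick-up 42 h after a prostaglandin F2alpha injection, and were frozen after washing. Each of 9 arrays with 2 colours carried RNA taken 30, 60 or 90 days after calving in Cy5, 3 biological replicates per day by their labels, and RNA taken 120 days after calving in Cy3. The labels do not say whether a replicate was 1 cow or a pool. A further file of deposited log2 values disagrees with the array files on which array is which, as described under the processing. The day of each array is therefore not certain, and all results by day rest on the array files as named. The RNA had been amplified by T7 transcription and labelled chemically on guanine. The dyes were never exchanged. Any dye bias of a probe is therefore part of its comparisons with 120 days, but drops out between days if all arrays share it. A log2 ratio below is Cy5 over Cy3, so a value above 0 is higher than at 120 days. Channel levels are normalised log2 signals, which were compared only within a probe.

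Fatty acid synthesis starts when ACLY cleaves citrate to cytosolic acetyl-CoA, ACACA carboxylates that to malonyl-CoA, and FASN builds palmitate from both. ELOVL6 lengthens palmitate, SCD puts the first double bond into saturated chains, and FADS1, FADS2 and ELOVL5 turn dietary essential fatty acids into long polyunsaturated ones. CD36, a scavenger receptor, and SLC27A1, a fatty acid transport protein with acyl-CoA synthetase activity, bring fatty acids into cells. In the follicle, granulosa cells take fatty acids from follicular fluid, whose content in cows shifts with the fat mobilised after calving.

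The arrays differed in signal and in cell markers. The share of probes above the control spots was 29.8% to 82.3% for Cy5 and 20.9% to 84.2% for Cy3. The lowest Cy3 share was that of 60 days replicate 3, whose control threshold lay at 800.2. Defining granulosa markers were present: all 16 of the list were measured, with 13 to 16 above background in Cy5 on every array. Macrophage and monocyte markers, 16 of 18 measured, had a median log2 ratio of 2.58 in 30 days replicate 2, 2.24 in 30 days replicate 3 and 2.10 in 90 days replicate 1, and of -1.34 to 0.56 on the other 6 arrays. Granulosa markers had medians of -1.86, -1.68 and -1.41 on the same 3 arrays, against 0.24 to 1.05 on the other 6. The summed Cy5 signal of the macrophage list was 7914 to 179791 at 30 days, 8785 to 23477 at 60 days and 42904 to 149925 at 90 days. That of the granulosa list was 17669 to 169095, 177619 to 211774 and 27490 to 219730. In such bulk RNA, fewer cells of a type and less RNA per cell cannot be told apart.

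Of the 10 genes, 1 passed the test in any comparison. SLC27A1 was higher at 60 than at 120 days, by 1.46 ± 0.13 on the log2 scale, or 2.74-fold, with an adjusted p of 0.0063 by limma. The ± of this and later differences is the limma SE, which pools the spread within days over all arrays fitted, 3 per day in the reported fit. The SLC27A1 ratios of the 3 arrays of 60 days had an SD of 0.30. Across all 14270 genes tested, 6.09% were called higher and 7.06% lower at 60 against 120 days, so 1 gene of 10 is close to the background share. With an unadjusted p under 0.05 by limma, 3 of the 10 were higher at 60 days (ACACA, FADS2 and SLC27A1) and 1 lower (CD36), against 13.3% and 17.8% of all genes. At 60 days 8 of the 10 estimates lay above 0, with a median log2 difference of 0.20 against -0.05 over all genes. ACACA, counted among the higher genes here, met the filter on dim probes only through the 60-day arrays. Its Cy5 spot exceeded background on 3 arrays of 60 days and 1 of 30 days, so its place in these counts is no support. None of the 10 passed at 30 days, where 0.0981% of all genes were called higher and 0.189% lower, and 3 were lower with an unadjusted p under 0.05 by limma (ACLY, SCD and ELOVL5), as were 10.2% of all genes, with 10.7% higher. None passed at 90 days (0.00701% of all genes higher and 0% lower), where ACLY (lower) and SLC27A1 (higher) had an unadjusted p under 0.05 by limma. At 90 days 6.03% of all genes were higher and 5.43% lower by that measure. The 10 genes had a median of -0.13 in the 30-day comparison and -0.09 in the 90-day one, against -0.01 over all genes in both.

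**Figure D1:**
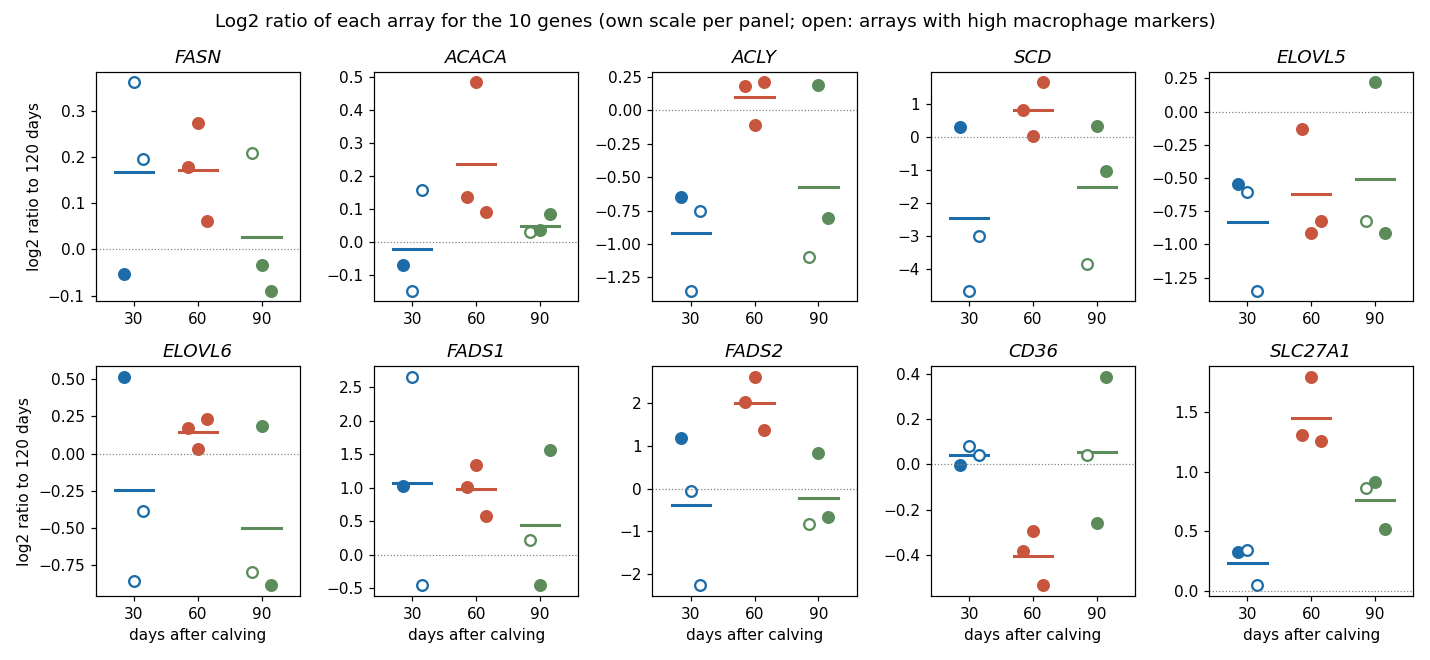
The log2 ratio to 120 days (y axis, own scale in each panel) of each array is shown for the 10 genes by days after calving, with a line at the mean of the 3 arrays. Open circles are the 3 arrays with high macrophage markers (median above 1). SLC27A1 separates the 3 days without overlap, and SCD is lowest on the 3 open circles.

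Among the uptake genes, SLC27A1 had log2 ratios of 0.32, 0.34 and 0.04 at 30 days, 1.31, 1.80 and 1.26 at 60 days, with 0.87, 0.91 and 0.52 at 90 days. All 9 lay above 0, and the values of the 3 days did not overlap, with 60 days highest and 30 days lowest. Its Cy5 level was 9.22, 8.55 and 8.32 at 30 days, 10.29, 9.997 and 9.72 at 60 days, with 9.24, 10.01 and 9.05 at 90 days. The Cy3 level of the 120-day RNA ran from 8.20 to 9.10 over the 9 arrays. In Cy5, 60 days lay wholly above 30 days and overlapped 90 days through replicate 2. The 3 arrays of high macrophage markers, 30 days replicates 2 and 3 and 90 days replicate 1, had Cy5 levels of 8.32 to 9.24. The other 6 had 9.05 to 10.29. The part of that shift in the order of the days was not tested. The spot was above background on 9 of 9 arrays in Cy5 and on 8 of 9 in Cy3, the exception being 60 days replicate 3.

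The estimated differences of SLC27A1 from 120 days were 0.24 ± 0.13 at 30 days (limma, adjusted p = 0.317) and 0.77 ± 0.13 at 90 days (adjusted p = 0.224). The 90-day difference passed with the sets of arrays of like 120-day RNA, described after FADS2, as a block (limma, adjusted p = 0.0427), where 0.659% of all genes did. The block takes the spread between sets out of the error, so that p does not measure it. Between days, 60 exceeded 30 days by 1.22 ± 0.18 (limma, adjusted p = 0.343) and 90 days by 0.69 ± 0.18 (adjusted p = 0.407). No gene of all 14270 passed between any 2 days (0% called). With an unadjusted p under 0.05 by limma, 5.18% of all genes were higher and 6.55% lower at 60 than at 30 days. At 60 against 90 days these shares were 4.39% and 5.72%, and at 90 against 30 days 3.26% and 2.46%. In the F test over the 3 days, CD36 and SLC27A1 had an unadjusted p under 0.05 by limma, as did 9.75% of all genes. SLC27A1 at 60 against 120 days had an adjusted p of 0.0563 when only the 60-day arrays were fitted, and over all alternatives it ran from 0.00306 to 0.0563 with differences of 1.27 to 1.56.

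The 60-day arrays also differed in cell markers. At 60 against 120 days 6.09% of all genes were called higher and 7.06% lower, the background for the marker counts here. Granulosa medians were 0.62 to 1.05 at 60 days and -1.86 to 0.40 on the other days, and 3 of 16 markers rose against 120 days by limma (AMH, AMHR2 and ESR2). Lymphocyte medians were -1.62 to -1.22 at 60 days and -0.89 to 1.43 on the other days, and 6 of 17 measured markers fell. Of 16 macrophage markers 0 passed in either direction, and 2 had an unadjusted p under 0.05 by limma, both lower, near the share of all genes (17.8%). Among the other lists, the test was passed by 4 of 10 neutrophil markers (lower), 3 of 14 epithelial (lower), 1 of 8 theca (LHCGR, higher), 1 of 8 red blood cell (EPB42, higher), 1 of 9 platelet (GP9, lower) and 2 of 6 adipocyte markers (PLIN1 higher, RETN lower). Of 11 endothelial markers 0 passed, and 1 was higher and 1 lower with an unadjusted p under 0.05 by limma. Lists with 1 call are near the share of all genes. The 6 adipocyte markers were dim, with a summed Cy5 signal of 1428 to 1486 at 60 days. The part of the granulosa and lymphocyte shifts in the SLC27A1 difference was not tested. None of the 3 arrays of high macrophage markers is of 60 days, so leaving them out keeps the 60-day estimate of SLC27A1 and changes only its error (SE of 0.15, adjusted p = 0.0429 by limma).

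The 3 genes whose log2 ratios lay closest to those of SLC27A1 over the 9 arrays were GNA11, with a root mean square difference of 0.34, LRRC61 with 0.36 and D2HGDH with 0.37. Among the other 9 genes of the set, FADS2 correlated most with it (r = 0.79 over 9 arrays). Arrays of like 120-day RNA, in the sets described after FADS2, are not independent, so these likenesses are descriptions only.

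**Figure D2:**
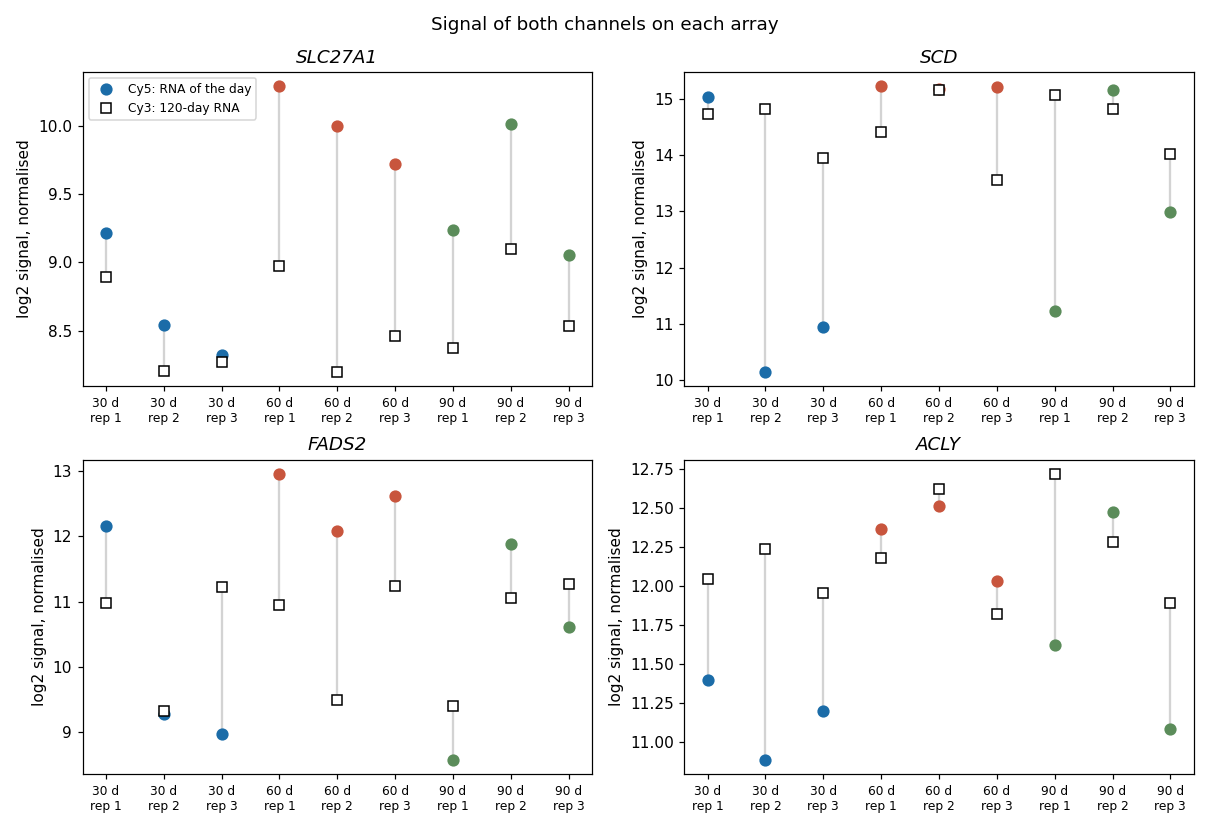
Normalised log2 signal (y axis) of both channels is drawn for each of the 9 arrays (x axis) for SLC27A1, SCD, FADS2 and ACLY. Filled circles are Cy5, the RNA of the day, and open squares are Cy3, the 120-day RNA, joined by a line for each array. The SCD squares stay between 13.55 and 15.16 while its circles drop to between 10.14 and 11.23 on 3 arrays.

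CD36 was read by 3 probes, which differed in the size of their ratios. The brightest, EMBV3_26275, had log2 ratios of -0.00, 0.08 and 0.04 at 30 days, -0.38, -0.29 and -0.53 at 60 days, with 0.04, -0.26 and 0.39 at 90 days. The 60-day ratios lay below all others, but their Cy5 levels, at 11.22, 11.23 and 10.83, did not. In 30 days replicate 2 the Cy5 level was 10.90 and the Cy3 level 10.82, the lowest Cy3 level of the 9 arrays. The 60-day difference from 120 days was -0.40 ± 0.11 (limma, adjusted p = 0.0535). This missed the threshold. The call was gained without 90 days replicate 2 (adjusted p = 0.0369), without 90 days replicate 3 (0.0215) or with array weights (0.027), all by limma, where 9.64%, 15.2% and 17.4% of all genes were called. Leaving out an array of another day keeps this estimate and changes only its error. With median centring in place of loess the difference shrank to -0.084 (adjusted p = 0.713), and with the 3 probes averaged it was -0.79 (adjusted p = 0.186).

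The second CD36 probe, EMBV3_07474, had log2 ratios of -0.65, 2.02 and 1.26 at 30 days, -0.19, -1.35 and -1.24 at 60 days, with 1.46, -0.22 and -1.86 at 90 days. The third, EMBV3_38397, had -0.86, 1.18 and 1.30, then -0.86, -1.03 and -1.27, then 1.18, -0.82 and 0.41. On both probes the 3 highest arrays were the 3 of high macrophage markers, with Cy5 levels of 11.68 to 12.03 on EMBV3_07474 against 8.28 to 8.98 on the other 6. CD36 is a surface protein of macrophages as well as of platelets, adipocytes and capillary endothelium. The summed Cy5 signal of the adipocyte list stayed between 1392 and 1550 over the 9 arrays, that of the endothelial list between 2690 and 8377, and that of the platelet list between 6103 and 28893. The part of macrophage RNA in these 2 probes was not tested.

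No CD36 probe passed. At 60 days the estimates were -0.93 ± 0.68 for EMBV3_07474 (limma, adjusted p = 0.378) and -1.05 ± 0.48 for EMBV3_38397 (adjusted p = 0.178). All 3 probes were below 0 on every 60-day array. Across the 9 arrays EMBV3_38397 correlated at r = 0.73 with the brightest probe, with the same sign on 9 of 9, and at 0.74 with EMBV3_07474, with the same sign on 8 of 9. EMBV3_07474 and the brightest probe correlated at 0.21, also with the same sign on 8 of 9.

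**Figure D3:**
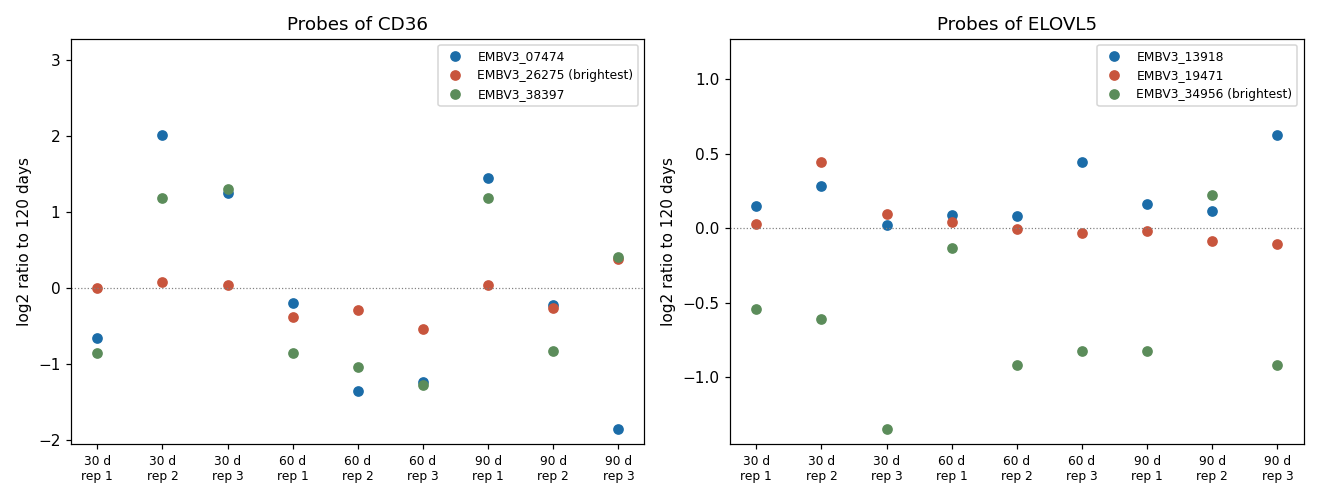
The log2 ratio to 120 days (y axis) of each probe is shown for the 9 arrays (x axis) for CD36, left, and ELOVL5, right. On CD36 the 2 dimmer probes range from -1.86 to 2.02 while the brightest stays between -0.53 and 0.39. On ELOVL5 the brightest probe reaches down to -1.35 while the others stay between -0.11 and 0.63.

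Of the desaturases, SCD moved most between arrays. Its log2 ratios were 0.29, -4.68 and -3.02 at 30 days, 0.81, 0.02 and 1.66 at 60 days, with -3.85, 0.34 and -1.04 at 90 days. The ranges of the 3 days overlapped, and 30 and 90 days each held high and low arrays. In Cy5 the levels were 15.03, 10.14 and 10.94, then 15.23, 15.18 and 15.21, then 11.23, 15.16 and 12.99. The Cy3 levels kept between 13.55 and 15.16. The 3 lowest Cy5 levels belonged to the 3 arrays of high macrophage markers and low granulosa markers, where SCD was 8.10-fold to 25.7-fold below the 120-day RNA.

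None of the SCD differences passed. They were -2.47 ± 1.03 at 30 days (limma, adjusted p = 0.236), 0.83 ± 1.03 at 60 days (adjusted p = 0.605) and -1.52 ± 1.03 at 90 days (adjusted p = 0.590). The 60-day level exceeded the 30-day level by 3.30 ± 1.45 (adjusted p = 0.416). Without the 3 arrays of high macrophage markers the 30-day value was 0.29, that of the single array left, with its spread taken from the other days. The part of the marker shift in these differences was not tested. On 60 days replicate 1 the Cy5 spot was saturated by its median pixel, so that ratio is a lower bound. Its raw mean was 40373. Those of 30 days replicate 1, 60 days replicates 2 and 3 and 90 days replicate 2 were close, at 36511 to 39143. The raw Cy3 means of 30 days replicate 2, 60 days replicate 2 and 90 days replicate 1 were also high, at 36983, 35372 and 37208. Whether these Cy5 and Cy3 signals were compressed too was not tested.

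SCD5, a second stearoyl-CoA desaturase picked out after its values were seen, fell on the same arrays. Its log2 ratios were 0.37, -4.02 and -3.63 at 30 days, 0.95, 1.90 and 1.75 at 60 days, with -3.63, 1.15 and 0.56 at 90 days. Its Cy5 level was 8.37 to 8.98 on the 3 arrays of high macrophage markers and 12.55 to 14.44 on the other 6. It passed in no comparison with 120 days, with an adjusted p of 0.256 at 30, 0.363 at 60 and 0.83 at 90 days by limma.

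FADS2, the delta-6 desaturase that opens the polyunsaturated pathway, had the highest estimate at 60 days. Its log2 ratios were 1.19, -0.05 and -2.26 at 30 days, 2.02, 2.61 and 1.38 at 60 days, with -0.82, 0.84 and -0.65 at 90 days. Every 60-day value lay above every value of the other days. The Cy5 levels were 12.16, 9.28 and 8.97 at 30 days, 12.96, 12.09 and 12.61 at 60 days, with 8.58, 11.89 and 10.61 at 90 days. The 60-day difference from 120 days was 2.00 ± 0.62, or 3.998-fold, and missed the threshold (limma, adjusted p = 0.0721). It passed without 30 days replicate 3 (adjusted p = 0.0389), with trend and robust settings (0.0468) and with the 120-day sets described next as a block (0.0393), where 8.33%, 16.5% and 18.1% of all genes were called. The p with the block leaves out the spread between sets, as for SLC27A1. At 30 days the difference was -0.37 ± 0.62 (adjusted p = 0.747) and at 90 days -0.21 ± 0.62 (adjusted p = 0.910). These 2 values turned to 0.57 without 30 days replicate 3, and to 0.093 without 90 days replicate 1 or 0.0062 without 90 days replicate 3. The 3 lowest Cy5 levels, 8.58 to 9.28, again belonged to the arrays of high macrophage markers, against 10.61 to 12.96 on the other 6, and the part of that shift was not tested.

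**Figure D4:**
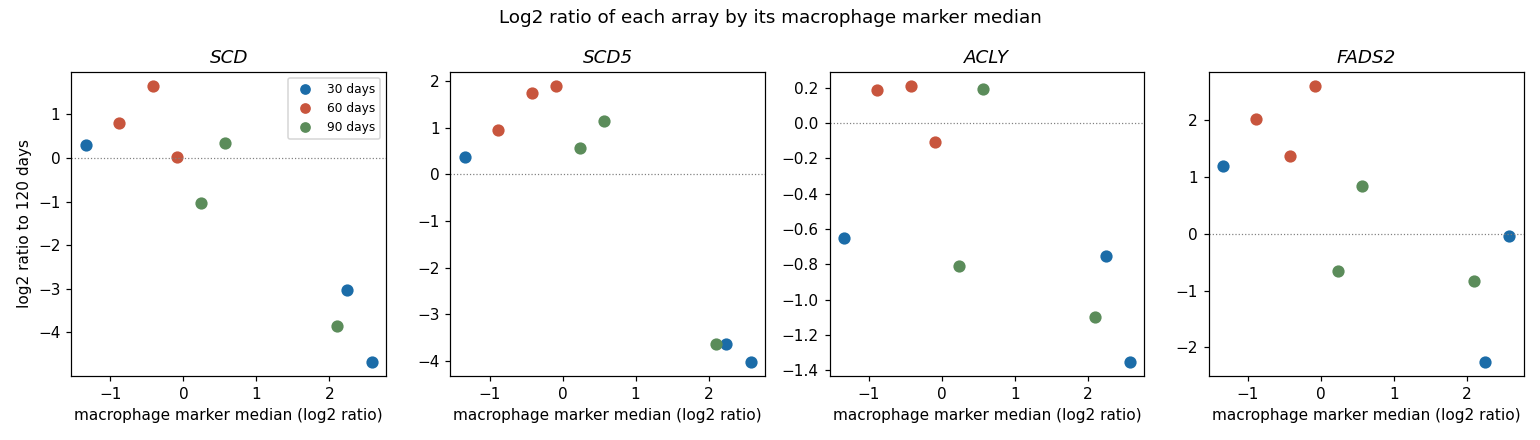
Each point is 1 array, with the median log2 ratio of the macrophage markers on the x axis and the log2 ratio of the gene on the y axis, coloured by day, for SCD, SCD5, ACLY and FADS2. The 3 arrays with a marker median above 1 hold the 3 lowest values of SCD and SCD5.

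The 120-day RNA was not uniform for the desaturases. By the correlation of their Cy3 signals over probes, the 9 arrays fell into 3 sets of 3, each with 1 array of every day (r of 0.968 to 0.990 within sets and 0.892 to 0.957 between them). The labels do not say which animals or pools these were. The set of 30 days replicate 2, 60 days replicate 2 and 90 days replicate 1 had a FADS2 Cy3 level of 9.40 ± 0.08 (SD over 3 arrays). The other sets had 10.99 ± 0.06, in the set with 30 days replicate 1, and 11.24 ± 0.02, in the set with 30 days replicate 3. FADS1 ran the same way, at 10.11 ± 0.33 against 11.50 ± 0.29 and 11.75 ± 0.39. FADS3, chosen after its values were seen, did too, at 8.19 ± 0.05 against 9.45 ± 0.09 and 9.12 ± 0.16. In the RefSeq gene table (assembly ARS-UCD2.0) the 3 genes are neighbours with 0 protein-coding genes between FADS1 and FADS2 and 0 between FADS2 and FADS3. The sets were not ordered alike for every gene: SCD was highest, at 15.02 ± 0.18, in the set where the FADS genes were lowest.

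Within each of the 3 sets, the 60-day array had the highest ratio of the 3 days for SLC27A1, SCD and FADS2, and the lowest for CD36 by its brightest probe. For SLC27A1 and SCD the 90-day array exceeded the 30-day array in all 3 sets as well. The other genes studied did not keep 60 days highest or lowest in all 3 sets. The share of all genes with such orders was not counted, so the orders are descriptions and no support for a change of these genes. The 3 arrays of high macrophage markers are all of 30 or 90 days, and their part in these orders was not tested. In the set with 30 days replicate 1, the SCD Cy5 levels were close, at 15.03, 15.23 and 15.16 at 30, 60 and 90 days. The Cy3 levels there were 14.74, 14.42 and 14.82, so that order rests largely on the 120-day channel. For CD36 by its brightest probe, 30 days replicate 2 had a Cy5 level of 10.90, below the 11.23 of 60 days replicate 2 in its set. The Cy3 levels were 10.82 and 11.52, so the order of these 2 arrays rests on the 120-day channel too.

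FADS1, the delta-5 desaturase, did not follow FADS2 across arrays (r = 0.27 over 9 arrays). Its brighter probe, EMBV3_22383, had log2 ratios of 1.02, 2.66 and -0.46 at 30 days, 1.01, 1.35 and 0.57 at 60 days, with 0.22, -0.45 and 1.56 at 90 days. The 3 days overlapped, and 7 of 9 values lay above 0. The differences from 120 days were 1.07 ± 0.57, 0.98 ± 0.57 and 0.44 ± 0.57 (limma, adjusted p = 0.316, 0.279 and 0.775). The 30-day value was 0.28 without replicate 2 and 1.84 without replicate 3 of that day, and the 90-day value 0.89 without replicate 2 and -0.11 without replicate 3 of its day. The dimmer probe, EMBV3_38167, was below 0 on the 3 arrays of 30 days and above 0 on the 3 of 60 days, within -0.24 to 0.50. It was above background on 6 of 9 arrays in each channel and correlated at r = -0.04 with the brighter one.

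ACLY, at the entry of the pathway, was below the 120-day RNA on every 30-day array. Its log2 ratios were -0.65, -1.35 and -0.75 at 30 days, 0.19, -0.11 and 0.21 at 60 days, with -1.10, 0.19 and -0.81 at 90 days. The 30-day values did not overlap those of 60 days, and 90 days spanned both. In Cy5 the levels were 11.40, 10.89 and 11.20, then 12.37, 12.51 and 12.03, then 11.62, 12.47 and 11.08. The 30-day difference from 120 days was -0.92 ± 0.24 (limma, unadjusted p = 0.0062, adjusted p = 0.150). The 90-day difference was -0.57 ± 0.24 (adjusted p = 0.436), and the 60-day one 0.10 ± 0.24 (adjusted p = 0.807). Between 60 and 30 days it was 1.02 ± 0.34 (adjusted p = 0.359). The arrays of high macrophage markers had ratios of -1.35 to -0.75, and the other 6 had -0.81 to 0.21, so these ranges overlapped.

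The ratios of ACLY and SCD correlated at r = 0.90 over the 9 arrays, those of SCD and ELOVL6 at 0.82, of ACLY and ELOVL6 at 0.77, and of SCD and FADS2 at 0.72. CD36 by its brightest probe ran against ACLY (r = -0.82). These values rest on arrays that have like 120-day RNA within each of 3 sets, and on a few arrays with large shifts.

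FASN and ACACA, which make malonyl-CoA and palmitate, lay close to the detection limit. FASN was above background on 8 of 9 arrays in each channel, with log2 ratios of -0.09 to 0.36 and a 60-day difference of 0.17 ± 0.09 (limma, adjusted p = 0.248). ACACA was above background in Cy5 on 4 of 9 arrays, all 3 of 60 days and 1 of 30 days, and in Cy3 on 1 of 9. It thus met the filter on dim probes only through the 60-day arrays. Its ratios ran from -0.15 to 0.48, and its fitted value at 60 days was 0.24 ± 0.09 (adjusted p = 0.119). A change of either gene is not well measured at these signals.

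The elongases also depended on the probe. ELOVL5 by its brightest probe, EMBV3_34956, was below 0 on 8 of 9 arrays, at -0.54, -0.61 and -1.35 at 30 days, -0.13, -0.92 and -0.82 at 60 days, with -0.82, 0.22 and -0.92 at 90 days. The days overlapped. The differences from 120 days were -0.83 ± 0.27, -0.62 ± 0.27 and -0.51 ± 0.27 (limma, adjusted p = 0.184, 0.158 and 0.506). Its Cy3 level was 11.77 ± 0.06 (SD over 3 arrays) in the set with 30 days replicate 1 and 12.71 ± 0.04 and 12.72 ± 0.12 in the others. With the sets as a block the 60-day difference passed (limma, adjusted p = 0.045), as did 18.1% of all genes, but that p leaves out the spread between sets. With the 3 probes averaged the 60-day difference was -0.14 (adjusted p = 0.404), and with median centring in place of loess -0.20 (adjusted p = 0.734). The 2 dimmer probes had ratios of -0.11 to 0.63 and correlated with the brightest at r = -0.17 and -0.09. Both lay close to the detection limit, with Cy5 levels of 7.80 to 8.40 and 8 of 9 Cy5 spots above background each. Their ratios are thus not well measured, and the average of the 3 probes includes them.

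ELOVL6 by its brightest probe, EMBV3_40920, ran from -0.89 to 0.52, with differences of -0.24 ± 0.28, 0.15 ± 0.28 and -0.50 ± 0.28 from 120 days at 30, 60 and 90 days (limma, adjusted p = 0.630, 0.747 and 0.522). A dimmer probe, EMBV3_13373, above background on 5 of 9 arrays in Cy5, had 0.64 ± 0.19 at 60 days (adjusted p = 0.060). The third, EMBV3_30333, stayed between -0.15 and 0.13. It was above background on 3 of 9 arrays in Cy5 and 2 of 9 in Cy3, so a change is not well measured by it.

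**Figure D5:**
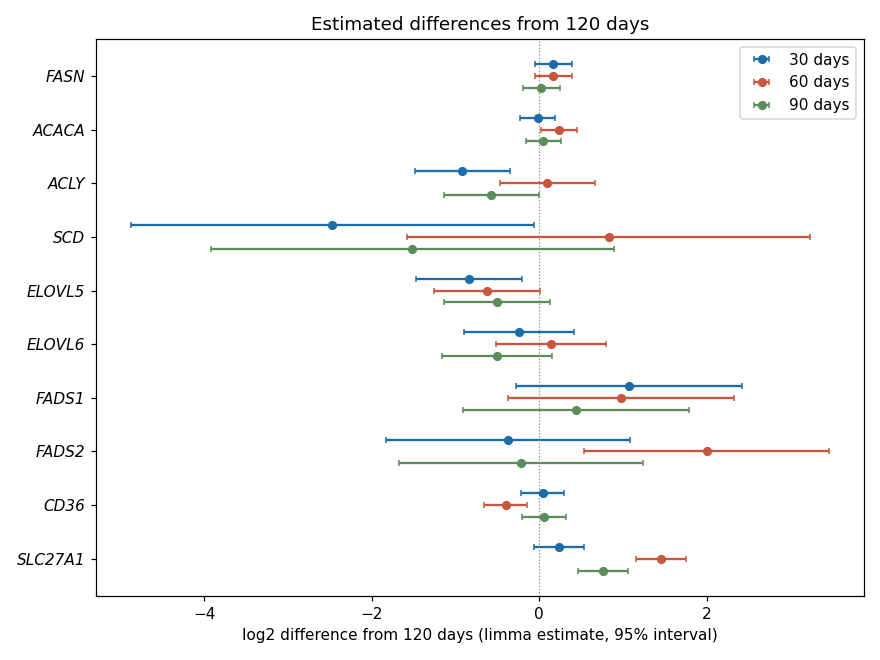
Points are the limma estimates of the log2 difference from 120 days (x axis) for each gene by its brightest probe, with 95% confidence intervals, at 30, 60 and 90 days. The SLC27A1 interval at 60 days runs from 1.16 to 1.75. The SCD interval at 30 days runs from -4.88 to -0.06.

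Around these 10 genes, 92 of 100 listed genes of the same metabolism were measured. At 60 against 120 days 6 were called higher (6.52%) and 4 lower (4.35%), and 82 did not pass, with a median log2 difference of 0.07 against -0.05 over all genes. These shares were near those of all genes, 6.09% and 7.06%. Without 60 days replicate 1, 2 or 3, 0 of the 10 calls passed, while 0.932%, 6.83% and 0.491% of all genes were called. Leaving out the 3 arrays of high macrophage markers keeps the 60-day estimates and changes only their error. There 0 of the 10 passed too, with 2.33% of all genes called. The reported fit called 13.1% of all genes, so the loss of calls is not particular to these 10. SLC27A1 passed in each of those fits, with an adjusted p of 0.0103 to 0.0396 by limma over all fits that left out 1 array. At 30 and 90 days 0 of the 92 passed, and 0 passed between days by limma.

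Among 22 lipogenic regulators, 2 rose at 60 days. INSIG1, a sterol-regulated protein that holds SREBP precursors in the endoplasmic reticulum, rose by 1.03 ± 0.25 (limma, adjusted p = 0.038). Its log2 ratios were 0.82, 1.01 and 1.27 at 60 days, -0.63 to 0.27 at 30 days and -0.25 to 1.06 at 90 days. STK11, the kinase that activates AMP-activated protein kinase, rose by 0.77 ± 0.16 (adjusted p = 0.025), with 60-day ratios of 1.12, 0.87 and 0.31. SREBF1, the SREBP-1 gene, looked up after its values were seen, had 1.05 ± 0.36 at 60 days (adjusted p = 0.091), 0.86 at 30 days and 0.69 at 90 days.

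Of 14 measured genes that supply acetyl-CoA, citrate or NADPH, DLAT, a subunit of the pyruvate dehydrogenase complex, rose by 0.75 ± 0.20 (limma, adjusted p = 0.046). TALDO1, transaldolase of the pentose phosphate pathway, was lower at -1.17 ± 0.26 (adjusted p = 0.031), with 60-day ratios of -1.07, -0.91 and -1.52 and a 30-day replicate 1 value of -1.13.

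Among 15 other elongation and desaturation genes, HACD2, a dehydratase of the elongation cycle, rose by 1.03 ± 0.23 (limma, adjusted p = 0.029), with 60-day ratios of 1.00, 0.77 and 1.32. With its probes averaged it was 0.51 (adjusted p = 0.133). ELOVL7, an elongase of saturated long chains, was lower at -0.51 ± 0.12 (adjusted p = 0.033). ACACB, the mitochondrial acetyl-CoA carboxylase, was also called lower (adjusted p = 0.030), but 0 of its 3 spots for 60-day RNA exceeded background, and the size of the change is left out.

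Of 21 other uptake, binding and activation genes 0 passed, and with an unadjusted p under 0.05 by limma 2 were higher and 3 lower, against 13.3% and 17.8% of all genes. The smallest p belonged to ACSL5, a long-chain acyl-CoA synthetase, at -2.003 ± 0.54 (limma, adjusted p = 0.051). Its log2 ratios were -1.78, -2.76 and -1.47 at 60 days, -0.67, 0.65 and 1.503 at 30 days, with 0.70, 0.11 and -1.73 at 90 days. Its 3 highest Cy5 levels fell on the 3 arrays of high macrophage markers, and the part of that shift was not tested.

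Of 7 mitochondrial fatty acid synthesis genes, ACSF3, a malonyl-CoA synthetase, rose by 0.59 ± 0.10 (limma, adjusted p = 0.016). The value was 0.082 without background correction (adjusted p = 0.711) and -0.072 with median pixel signals (adjusted p = 0.921), also by limma. Its 90-day estimate of 0.63 did not pass (adjusted p = 0.223). Of 13 esterification genes, GPAT3, a glycerol-3-phosphate acyltransferase, was lower at -0.98 ± 0.20 (adjusted p = 0.025), with -0.54, -0.97 and -1.44 at 60 days. LPIN1, a phosphatidate phosphatase, was called higher (adjusted p = 0.030), but 0 of its 9 spots for 120-day RNA exceeded background, and its size is left out too.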

How the data were processed

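Granulosa cell RNA was measured on 9 arrays of 2 colours, 3 per day. Per the file headers, the deposited array files hold mean and median spot intensity and local background for both channels, neither subtracted nor normalised. The scanner software was not given in the sources used here. Log2 values, whose scale, centring and direction stay unknown, make up a further file that the authors deposited (column medians -0.02 to 0.03). It was not used, because 8 of its 9 columns correlated most, by the size of r, with an array other than their own: 5 at r of 0.84 to 0.93, 3 of them with one of another day, and 3 negatively. The remaining column, of 60 days replicate 3, correlated most with its own array, at r = -0.76. The columns of 30 days replicates 1 and 3 matched the arrays named 60 days replicates 1 and 2, each at r = 0.93. The column of 60 days replicate 2 matched the array named 90 days replicate 3, at r = 0.89. Whether the columns or the array files carry the right labels is not known. All results by day rest on the array files as named, and would change if the columns were right.

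Mean intensities were corrected with normexp (offset 50) and loess with limma (version 3.58.1, under R 4.3.3; files were read by data.table, version 1.17.8), with control spots at weight 0. Probes had to exceed the mean of 153 negative control spots by 2 SD in either channel on at least 3 arrays. This kept 38823 of 43794 probes (88.6%). The platform annotation named a gene for 21790 probes and none for 22004, and 1524 symbols were updated through a RefSeq gene list (ARS-UCD2.0), which added 0 probes to the 10 genes. A gene was represented by its probe of highest mean A.

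One limma model (lmFit, eBayes, 1 coefficient per day, 6 residual degrees of freedom) gave each day against 120 days, each pair of days and an F test over days. P-values were adjusted by Benjamini-Hochberg over all probes, with a threshold of 0.05. Channel levels were taken after Aquantile. The comparisons with 120 days share RNA, and the number of arrays limits the precision. Scripts were tested on simulated data.

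The 10 genes and the gene lists were chosen with earlier results of these data known. All 10 were named. From each list up to 4 genes past the threshold were named, or with none the 1 with the smallest p, and for each of the 10 genes past the threshold the 3 genes with the smallest root mean square difference of ratios. Alternatives changed the background correction, normalisation, filter, pixels, block, weights, eBayes settings, arrays fitted, threshold and probe averaging. Log2 ratios between arrays correlated at r of -0.11 to 0.74. Deviations from the day means correlated at r of 0.34 to 0.51 between same-numbered arrays of 30 and 60 days, which also share a set of 120-day RNA. Differently numbered arrays were not compared, so pairing by number and the shared 120-day RNA cannot be told apart here. With 90 days, 5 of 6 such correlations were below 0, and the numbers do not pair it.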

Additional observations from a re-analysis of the deposited data

How the results depend on the processing

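No value of the 10 genes changed sign past the threshold under the 22 alternatives tried for each. Of these values 621 kept their direction and side of the threshold, 13 passed it newly, 1 no longer passed and 25 moved without passing. At 60 against 120 days, 1 gene of the 10 passed in the reported fit. The count was 3 with the 120-day set as a block (ELOVL5, FADS2 and SLC27A1; 18.1% of all genes called) and 2 with array weights (CD36 and SLC27A1; 17.4%), with trend and robust settings (FADS2 and SLC27A1; 16.5%) or with an unadjusted p and a 1.5-fold change (FADS2 and SLC27A1; 13%). It was 0 when only the 60-day arrays were fitted, and from 1 to 2 when single arrays were left out: FADS2 was added without 30 days replicate 3, CD36 without 90 days replicate 2 or 3. At 90 against 120 days the count rose from 0 to 1 with the set block (SLC27A1, adjusted p = 0.0427 by limma), where 0.659% of all genes were called. The count was also 1 with the unadjusted p, against 4.1% of all genes. With that unadjusted rule it was 3 at 30 against 120 days (ACLY, ELOVL5 and SCD), 3 for 60 against 30 days, 2 for 60 against 90 days, and 2 for any difference among days (CD36 and SLC27A1), against 10.5%, 4.86%, 5.29% and 9.75% of all genes. Fitting only the arrays compared gave no separate value for the F test. The replicate numbers gave correlations of -0.69 to 0.51 over 9 pairs, 5 of them below 0. For 60 against 30 days, which the numbers may pair, the replicate block left 0 genes called, as without it. Either block, by replicate number or by 120-day set, takes the spread between its levels out of the error of a difference from 120 days. Passing with a block therefore adds no support, and the replicate block also spans 90 days, which the numbers do not pair. With the replicate block, SLC27A1 kept 1.46 ± 0.08 at 60 days (limma, adjusted p = 0.0258) and stayed the 1 gene called, while the count over all genes fell from 1876 to 590. That count rose to 2582 with the 120-day set as a block, 2485 with array weights, 2360 with trend and robust settings, 2149 with no filter and 2175 without 90 days replicate 3. It was 852 without background correction, 251 with median pixels, 0 with only the 60-day arrays, 332 without the 3 arrays of high macrophage markers, 133 without 60 days replicate 1, 975 without 60 days replicate 2, 70 without 60 days replicate 3 and 1188 without 30 days replicate 3. Over all genes the 41 calls at 30 days ran from 0 (replicate block, among others) to 1007 (no background correction), and the 1 call at 90 days from 0 to 188; between days 0 to 2 genes passed by any adjusted setting. Of the 92 pathway genes measured, 6 were called higher and 4 lower at 60 days. The higher calls ran from 0 to 8 and the lower from 0 to 6; both were 0 without any single 60-day array and with only the 60-day arrays. With median pixels ACSF3 turned from 0.59 to -0.072. Leaving out the arrays of high macrophage markers moved SCD at 30 days from -2.47 to 0.29. The causes were not tested. The dim spots of FASN and ACACA limit what can be said of them.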
